A study of Marchantia polymorpha with 18 samples.

Results

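MpBHLH2 (Mp2g00890), MpBHLH3 (Mp2g00910), MpBHLH4 (Mp2g00930) and MpBHLH51 (Mp8g06230) are genes of the liverwort Marchantia polymorpha named for the basic helix-loop-helix (bHLH) family of transcription factors. They are 4 of the 20574 genes listed in an RNA sequencing study of wounding and the jasmonate pathway. The 4 genes were taken by identifier and had been chosen by their transcript levels in the same libraries, namely their rise after wounding in the wild type and its reduction in a jasmonate receptor mutant. The values that chose them are therefore given as a description, without a test. The identifiers of MpBHLH2, MpBHLH3 and MpBHLH4 carry the number of chromosome 2 and stand close together in the gene list, while that of MpBHLH51 carries the number of chromosome 8.

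A bHLH protein binds DNA through its basic region and pairs with another bHLH protein through the helix-loop-helix, and many of its binding sites are short palindromic motifs called E-boxes. In land plants a jasmonate ligand joins the F-box protein COI1 to a JAZ repressor, JAZ is degraded, and the bHLH factors of the MYC group that it held back become active. In Marchantia the ligand is dinor-OPDA, an oxylipin made from polyunsaturated fatty acids that fatty acid desaturases supply. Wounding is the classical trigger of this pathway in plants, and JAZ genes are themselves among its usual targets.

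The libraries came from 3 genotypes, each wounded or mock-treated: the mutant Mpcoi1, named for the receptor gene MpCOI1, the double mutant Mpdes6fad5 of the desaturase genes MpDES6 and MpFAD5, and Tak-1, a male wild-type accession. Each of the 6 groups had 3 replicates, each pooled from 6 to 8 plants that had grown for 3 weeks on agar medium, and wounds were made with tweezers. The tissue is labelled leaflets, and the growth protocol names apical pieces from which gemma cups were left out. The labels give 2 h of treatment and the protocol gives freezing at 90 min, so the time is known only as 1 of these. The labels give neither the type of lesion in the mutants nor whether each mutant is 1 line.

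The 18 libraries held 19382332 to 26303510 reads in genes, so a count of 0 allowed a level of up to 0.107 to 0.158 CPM, counts scaled to a common library size, for counting error only. Of the listed genes 13220 reached 1 CPM in at least 3 libraries and were tested. MpCOI1 had 20.4 to 27.0 CPM over the 6 Mpcoi1 libraries, against 63.4 to 90.9 CPM over the 6 Tak-1 libraries. MpDES6 had 27.5 to 48.8 CPM in Mpdes6fad5, against 34.7 to 73.4 CPM in Tak-1, and MpFAD5 had 252 to 304 CPM in Mpdes6fad5, against 423 to 600.2 CPM in Tak-1. Of 6 tested marker genes of other cells, 4 were higher after wounding in Mpdes6fad5 and 2 were lower. This stands beside 28.1% of all tested genes called higher and 28.9% called lower. The higher ones were MpNOP1 of air chambers, MpGCAM1 of gemma cups, MpC1HDZ of oil body cells and MpDUO1 of the male germline. The lower ones, MpERF13 and MpSYP12B, are also markers of oil body cells, so the oil body markers split. The summed level of the 7 markers with a symbol was 281 to 324 CPM in wounded and 151 to 163 CPM in mock Mpcoi1, 310.0 to 328 CPM in wounded and 147 to 159.7 CPM in mock Mpdes6fad5, and 341 to 423 CPM in wounded and 143 to 171 CPM in mock Tak-1. MpPRM, the other male germline marker of the 7, was at or near 0, with group means of at most 0.0581 CPM. The part of these cells in the results below was not tested, and fewer cells of a type cannot be told apart from less RNA per cell.

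Mock Tak-1 replicate 2 stood apart from the other mock Tak-1 libraries in MpBHLH4 and MpBHLH51, and wounded Mpcoi1 replicate 3 stood apart from its group in MpBHLH3. Log2 differences that rest on them are given with and without them. Group means and ratios of summed reads hold all libraries. Wounded Tak-1 replicate 3 was the lowest of its group in MpBHLH51, at 124 CPM beside 192 and 204 CPM. Its pairs with replicates 1 and 2 had the largest chi-square per gene between replicates, 32.7 and 27.6. Log2 differences of MpBHLH51 are not given separately without it.

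All 4 genes passed the filter on low values. MpBHLH4 and MpBHLH51 passed it only through wounded libraries of Tak-1, Mpdes6fad5 and, for MpBHLH51, Mpcoi1, apart from 2 mock Tak-1 libraries of MpBHLH4. Levels are not compared between genes, because CPM is not scaled to gene length.

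MpBHLH2 was abundant in every wounded group and was the only gene of the 4 whose mean was higher in wounded Mpdes6fad5 than in wounded Tak-1. In Mpcoi1 it had 28.1, 27.9 and 26.3 CPM in wounded replicates 1 to 3, against 9.60, 10.2 and 10.9 CPM in mock ones. In Mpdes6fad5 it had 279, 246 and 280.2 CPM in wounded libraries, against 5.21, 6.06 and 5.60 CPM in mock libraries. In Tak-1 it had 207, 243 and 223 CPM in wounded libraries, against 10.6, 12.6 and 9.56 CPM in mock libraries. Wounded and mock libraries did not overlap in any genotype, and the receptor mutant kept a rise of smaller size.

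The group means of MpBHLH2 ran from 268 ± 19.1 CPM in wounded Mpdes6fad5 through 225 ± 17.96 in wounded Tak-1, 27.4 ± 0.997 in wounded Mpcoi1, 10.9 ± 1.52 in mock Tak-1 and 10.2 ± 0.644 in mock Mpcoi1 to 5.62 ± 0.423 in mock Mpdes6fad5 (SD, n = 3 each). Neighbours in this order were taken as apart where their libraries did not overlap and their means differed by more than the sum of both SDs. Every neighbouring pair was apart but mock Tak-1 and mock Mpcoi1.

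MpBHLH3 showed no rise in Mpcoi1 as a group, and its mean level in wounded Mpdes6fad5 was below that in wounded Tak-1. In Mpcoi1 it had 2.26, 2.61 and 6.27 CPM in wounded libraries, against 4.34, 3.25 and 3.29 CPM in mock libraries. In Mpdes6fad5 it had 37.3, 32.6 and 33.2 CPM in wounded libraries, against 2.98, 3.92 and 3.48 CPM in mock libraries. In Tak-1 it had 82.0, 90.2 and 102 CPM in wounded libraries, against 10.9, 13.04 and 8.50 CPM in mock libraries. In Mpcoi1 the groups overlapped, with 2 wounded libraries below all mock ones and replicate 3 above them. In both other genotypes every wounded library lay above every mock library.

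The order of MpBHLH3 was led by wounded Tak-1 (91.5 ± 10.2 CPM), followed by wounded Mpdes6fad5 (34.4 ± 2.54 CPM) and mock Tak-1 (10.8 ± 2.27 CPM; SD, n = 3 each). Wounded Mpcoi1 at 3.71 ± 2.22 CPM, mock Mpcoi1 at 3.63 ± 0.620 CPM and mock Mpdes6fad5 at 3.46 ± 0.469 CPM were not apart from each other (SD, n = 3 each). The undamaged wild type thus had a higher level than the wounded receptor mutant.

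MpBHLH4 had the widest contrast between genotypes, since almost no read was found in Mpcoi1 whether wounded or not. In Mpcoi1 it had 5, 3 and 0 reads in wounded libraries, against 7, 3 and 2 reads in mock libraries, or at most 0.264 CPM. In Mpdes6fad5 it had 175, 150.2 and 165 CPM in wounded libraries, against 0.868, 0.463 and 0.706 CPM in mock libraries. In Tak-1 it had 239.6, 289.9 and 266 CPM in wounded libraries, against 0.724, 11.9 and 1.02 CPM in mock libraries. Wounded and mock libraries overlapped in Mpcoi1 and did not overlap in Mpdes6fad5 or Tak-1. The 11.9 CPM of mock Tak-1 replicate 2 came from 296 reads, where replicates 1 and 3 had 14 and 23.

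In the order of MpBHLH4 wounded Tak-1 (265 ± 25.2 CPM) was apart from wounded Mpdes6fad5 (164 ± 12.7 CPM; SD, n = 3 each), which was apart from mock Tak-1 (4.54 ± 6.35 CPM, SD, n = 3). Mock Tak-1 was not apart from mock Mpdes6fad5 at 0.679 ± 0.204 CPM, which was apart from mock Mpcoi1 at 0.157 ± 0.0954 CPM (SD, n = 3 each). Mock Mpcoi1 was not apart from wounded Mpcoi1 at 0.115 ± 0.108 CPM (SD, n = 3). The 8 reads summed over wounded Mpcoi1 were 0.000439 times the depth-adjusted sum in wounded Tak-1 (16819 reads), with an exact 95% counting interval of 0.000189 to 0.000864.

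MpBHLH51 was close to the detection limit in all mock groups and was the gene of the 4 with the largest log2 rise in Mpcoi1. In Mpcoi1 it had 14.3, 20.5 and 20.5 CPM in wounded libraries, against 0.0756, 0.244 and 0.459 CPM in mock libraries. In Mpdes6fad5 it had 119, 119.9 and 122 CPM in wounded libraries, against 0.113, 0.143 and 0.283 CPM in mock libraries. In Tak-1 it had 192, 204 and 124 CPM in wounded libraries, against 0.207, 0.802 and 0.133 CPM in mock libraries. No wounded library overlapped a mock library in any genotype, and the Mpcoi1 wounded libraries lay below those of both other genotypes.

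The order of MpBHLH51 ran from wounded Tak-1 (173 ± 43.1 CPM) to wounded Mpdes6fad5 (120.2 ± 1.52 CPM) to wounded Mpcoi1 (18.5 ± 3.58 CPM; SD, n = 3 each), each apart from the next. Wounded Tak-1 replicate 3, at 123.9 CPM, lay only just above the highest wounded Mpdes6fad5 library, at 121.8 CPM. Mock Tak-1 at 0.381 ± 0.367, mock Mpcoi1 at 0.259 ± 0.192 and mock Mpdes6fad5 at 0.179 ± 0.0905 CPM were not apart (SD, n = 3 each). These mock levels rested on 27, 19 and 13 reads summed over 3 libraries.

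**Figure D1:**
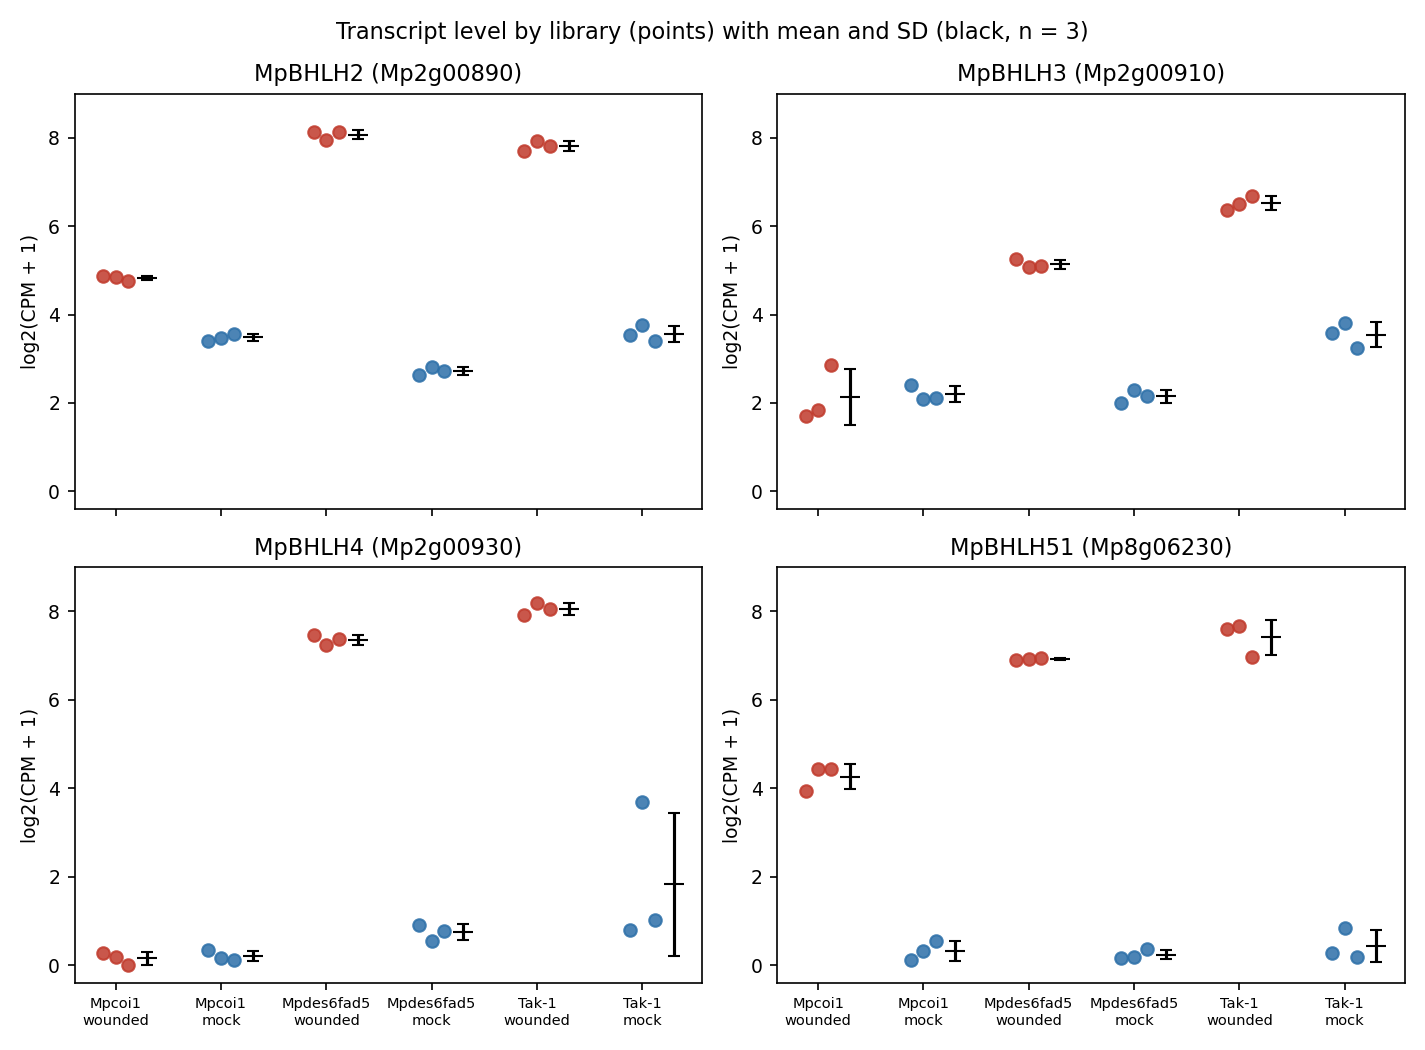
Transcript level of the 4 genes on a log2(CPM + 1) axis in each of the 18 libraries (red points wounded, blue points mock), with the group mean and SD in black (n = 3). The wounded Mpcoi1 points of MpBHLH4 lie with the mock points, those of MpBHLH51 lie well above them, and mock Tak-1 replicate 2 (11.9 CPM) lies apart for MpBHLH4.

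The plot of levels by library shows patterns that differ between the genes most in Mpcoi1. As a description, the wounded minus mock difference of log2(CPM + 1) in Mpcoi1 was 1.34 ± 0.09 for MpBHLH2, −0.06 ± 0.22 for MpBHLH3, −0.05 ± 0.46 for MpBHLH4 and 3.94 ± 0.19 for MpBHLH51 (limma estimate ± SE). In Tak-1 it was 4.25 ± 0.09, 2.98 ± 0.22, 6.22 ± 0.46 and 6.98 ± 0.19 in the same order of genes. The constant of 1 CPM makes these differences smaller than the ratio of CPM for weakly expressed genes. Without wounded Mpcoi1 replicate 3 the Mpcoi1 difference of MpBHLH3 was −0.42 ± 0.15, and without mock Tak-1 replicate 2 the Tak-1 difference of MpBHLH4 was 7.15 ± 0.13 and that of MpBHLH51 7.19 ± 0.19.

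Ratios of summed reads, adjusted for depth, show the same values without a constant. In Mpcoi1 the wounded to mock ratio was 2.69 for MpBHLH2 (exact 95% counting interval 2.47 to 2.93), 1.01 for MpBHLH3 (0.849 to 1.20), 0.730 for MpBHLH4 (0.259 to 1.94) and 72.8 for MpBHLH51 (46.4 to 121). In Tak-1 it was 20.5 (19.1 to 22.1), 8.46 (7.83 to 9.15), 53.4 (47.9 to 59.7) and 425 (292 to 645) in that order. These intervals cover counting error and not the spread between plants. Mock Tak-1 replicate 2 gave 296 of the 333 mock Tak-1 reads of MpBHLH4 and 20 of the 27 of MpBHLH51. The Tak-1 ratios of MpBHLH4 and MpBHLH51 thus lean on that library, and they were not computed without it. MpBHLH51 in Mpcoi1 had 32nd place by log2 difference among the 13220 tested genes, where MpBHLH2 had place 650, MpBHLH4 place 6657 and MpBHLH3 place 6791. In Tak-1 the places were 3 for MpBHLH51, 6 for MpBHLH4, 35 for MpBHLH2 and 129 for MpBHLH3.

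All 3 wounded Tak-1 libraries lay above all 3 mock ones in 4 of 4 genes, beside 26.1% of all tested genes, and nothing is read from this count because the genes were chosen on it. In Mpcoi1 2 of 4 (MpBHLH2 and MpBHLH51) had all wounded above all mock libraries, beside 28.0% of all tested genes. The choice also used the Mpcoi1 response, so nothing is read from this count either.

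The values named as choosing the genes were those of Tak-1 and Mpcoi1. The genes were picked as wound-induced from data that also held the Mpdes6fad5 libraries, and whether these took part was not tested. The wound response in Mpdes6fad5 is therefore given as a description, without a p-value. The choice was made with earlier results of these data known, so the values below are no independent support for it. All 4 genes rose, 4 of 4 beside 28.1% of all tested genes called higher in this comparison. The log2(CPM + 1) difference, wounded minus mock, was 5.35 ± 0.09 for MpBHLH2 (limma estimate ± SE). It was 2.99 ± 0.22 for MpBHLH3 and 6.62 ± 0.46 for MpBHLH4. MpBHLH51 rose by 6.69 ± 0.19. The ratios of summed reads were 47.6 for MpBHLH2 (exact 95% counting interval 43.3 to 52.5), 9.93 for MpBHLH3 (8.74 to 11.3), 243 for MpBHLH4 (185 to 327) and 700.1 for MpBHLH51 (409 to 1316). By log2 difference MpBHLH51 had place 2, MpBHLH4 place 3, MpBHLH2 place 15 and MpBHLH3 place 159 of the 13220 genes. MpBHLH4 and MpBHLH51 passed the filter through wounded libraries, so their place among the tested genes, and the count of 4 of 4, are no support. The 3 wounded Tak-1 libraries alone, all at 124 CPM or more for both genes, were enough to pass it.

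The Mpdes6fad5 and Tak-1 responses were set side by side as a description. The Mpdes6fad5 minus Tak-1 difference of the log2 responses was 1.10 ± 0.13 for MpBHLH2, 0.01 ± 0.31 for MpBHLH3, 0.40 ± 0.65 for MpBHLH4 and −0.29 ± 0.27 for MpBHLH51 (limma estimate ± SE). Over the alternative settings only MpBHLH2 kept the sign of this difference, at 0.83 to 1.36. It ran from −0.40 with a constant of 5 CPM to 0.22 for MpBHLH3, and from −0.53 without mock Tak-1 replicate 2 to 1.09 for MpBHLH4. For MpBHLH51 it ran from −0.52 to 0.31, the highest value being that of voom on the recovered reads. The ratio of summed reads of MpBHLH51 has no constant. It was 700.1 in Mpdes6fad5 (exact 95% counting interval 409 to 1316) and 425 in Tak-1 (292 to 645). The Tak-1 ratio rested on 27 mock reads, 20 of them from mock Tak-1 replicate 2. No order of the genotypes is read from these ratios. The Mpcoi1 minus Tak-1 difference was −2.91 ± 0.13 for MpBHLH2, −3.04 ± 0.31 for MpBHLH3, −6.28 ± 0.65 for MpBHLH4 and −3.03 ± 0.27 for MpBHLH51. The Mpdes6fad5 and Mpcoi1 differences share the Tak-1 libraries.

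Levels in wounded libraries were set side by side in the same way. Wounded Mpdes6fad5 had 1.19 times the wounded Tak-1 reads of MpBHLH2, 0.374 times those of MpBHLH3, 0.615 times those of MpBHLH4 and 0.700 times those of MpBHLH51, adjusted for depth. Wounded Mpcoi1 had 0.122 times the wounded Tak-1 reads of MpBHLH2, 0.0401 times those of MpBHLH3 and 0.107 times those of MpBHLH51. MpBHLH3 was thus lower in wounded Mpdes6fad5 than in wounded Tak-1 while its log2 response was 2.99 ± 0.22 in Mpdes6fad5 and 2.98 ± 0.22 in Tak-1.

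Mock plants were compared between genotypes to ask whether the levels already differed without wounding. The mock Mpcoi1 and mock Tak-1 libraries were part of the values that chose the genes, so their difference is a description. Mock Mpcoi1 minus mock Tak-1 was −1.34 ± 0.22 for MpBHLH3 and −1.62 ± 0.46 for MpBHLH4 (log2(CPM + 1), limma estimate ± SE). These were 2 of 4 genes past the threshold on the lower side, beside 4.56% of all tested genes, and nothing is read from this count. All mock Mpcoi1 libraries lay below all mock Tak-1 libraries for both genes. The difference was −0.08 ± 0.09 for MpBHLH2 and −0.11 ± 0.19 for MpBHLH51. The value for MpBHLH4 leaned on mock Tak-1 replicate 2, without which it was −0.69 ± 0.13. Without that library the differences of MpBHLH2 and MpBHLH51 turned to 0.017 and 0.096.

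The Mpdes6fad5 values were not among those named as choosing the genes, while those of the mock Tak-1 libraries were. The adjusted p-values of this comparison do not allow for this. Mock Mpdes6fad5 had lower MpBHLH2 than mock Tak-1, with a log2(CPM + 1) difference of −0.84 ± 0.09 (SE; limma, Benjamini-Hochberg adjusted p = 1.23e-06). It also had lower MpBHLH3, with −1.39 ± 0.22 (adjusted p = 7.48e-05). These were 2 of 4 genes called lower, beside 20.4% of all tested genes. Every mock Mpdes6fad5 library lay below every mock Tak-1 library for both genes. MpBHLH4 (−1.09 ± 0.46, adjusted p = 0.0710) and MpBHLH51 (−0.20 ± 0.19, adjusted p = 0.448) did not pass, and without mock Tak-1 replicate 2 the value for MpBHLH4 was −0.16 ± 0.13. With scaling to library totals the median of all genes in this comparison was 0.14, where it was 0.01 otherwise, and MpBHLH2 and MpBHLH3 were still called lower, with −0.72 and −1.28.

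The comparison between the mutants used the mock Mpcoi1 libraries, which had a part in the choice of the genes. Its adjusted p-values do not allow for this. Mock Mpdes6fad5 had lower MpBHLH2 than mock Mpcoi1, with a log2(CPM + 1) difference of −0.76 ± 0.09 (limma estimate ± SE, adjusted p = 4.69e-06). It was 1 of 4 genes called, beside 32.8% of all tested genes called in either direction. MpBHLH3 (−0.05 ± 0.22, adjusted p = 0.889) and MpBHLH51 (−0.09 ± 0.19, adjusted p = 0.774) did not pass. For MpBHLH4 the libraries did not overlap, at 0.463 to 0.868 CPM in Mpdes6fad5 against 0.0834 to 0.264 CPM in Mpcoi1, and the difference of 0.53 ± 0.46 did not pass (adjusted p = 0.408). Without mock Tak-1 replicate 2, whose distance from its group enters the shared estimate of the spread, the same difference had an SE of 0.12 and an adjusted p of 0.00254.

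The other genes with a bHLH symbol served as a measure of how the family behaved. Of 45, 34 were tested, and in wounded against mock Mpdes6fad5 12 rose, 11 fell and 11 did not pass, with a median log2(CPM + 1) difference of −0.03, equal to the median of −0.03 over all tested genes, of which 28.1% were called higher and 28.9% lower. In Tak-1 10 rose, 11 fell and 13 did not pass, beside 26.0% of all tested genes called higher and 30.6% lower. In Mpcoi1 9 rose, 14 fell and 11 did not pass, beside 24.5% called higher and 28.5% lower. In Mpdes6fad5 the responses of the 4 genes, from 2.99 to 6.69, lay above the highest of the others at 1.53. The same holds in Tak-1, where the choice of the genes fixed it. As the 4 genes were picked as wound-induced from the same data, nothing is read from the separation in Mpdes6fad5 either.

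**Figure D2:**
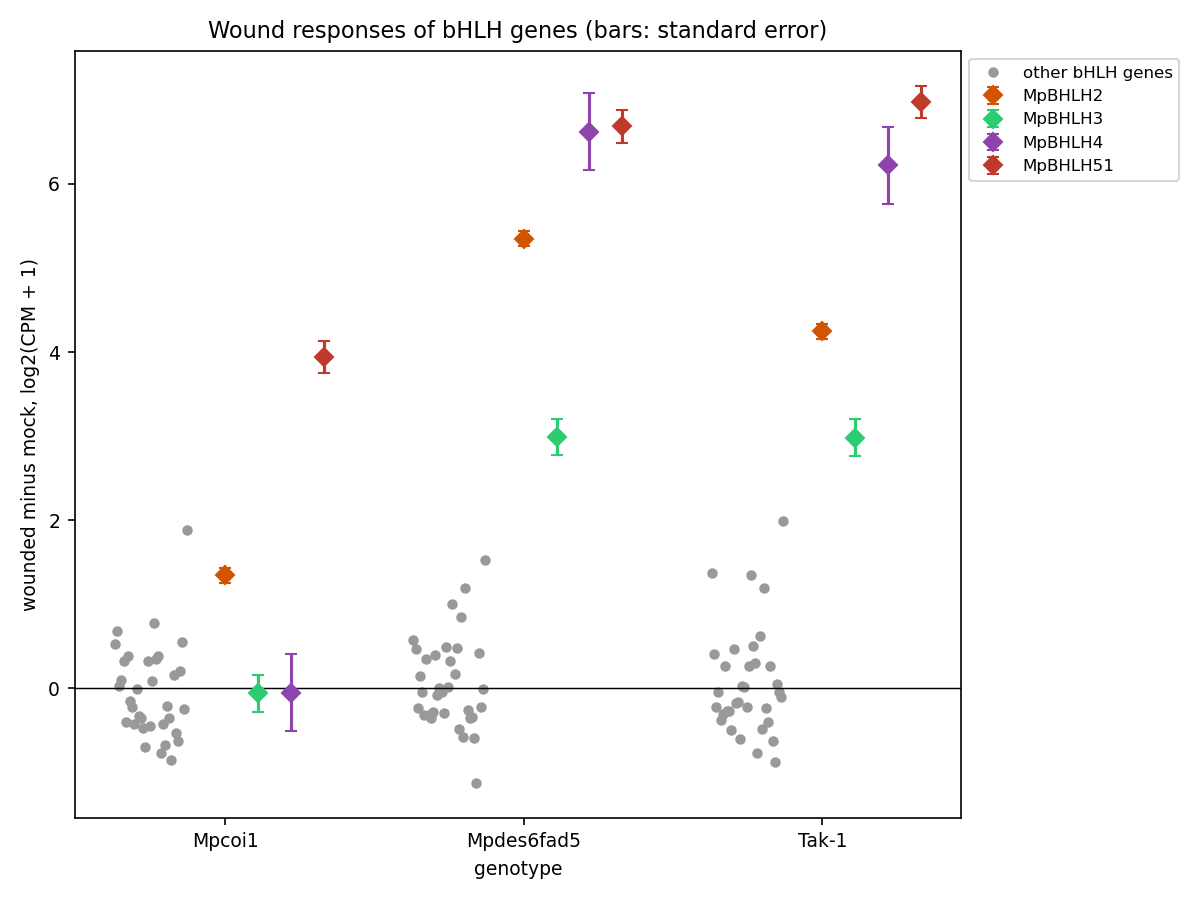
Wound response, wounded minus mock on the log2(CPM + 1) scale, of the 38 tested bHLH genes in Mpcoi1, Mpdes6fad5 and Tak-1, with grey points for the 34 others and coloured diamonds with SE bars for the 4 genes. In Mpdes6fad5 the lowest diamond, MpBHLH3 at 2.99, lies above every grey point, while in Mpcoi1 MpBHLH3 and MpBHLH4 lie at −0.06 and −0.05.

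Of the others, 3 passed the threshold in Mpdes6fad5 with a size of at least 1 (log2). MpBHLH1 (Mp5g03020) had 50.7 ± 5.54 CPM in wounded and 21.6 ± 0.0999 CPM in mock Mpdes6fad5 (SD, n = 3 each), a rise of 1.19 ± 0.07 (SE; limma, adjusted p = 1.44e-10). It had 21.4 ± 1.47 CPM in wounded and 24.9 ± 0.609 CPM in mock Mpcoi1, against 71.3 ± 4.29 CPM in wounded and 30.7 ± 0.606 CPM in mock Tak-1 (SD, n = 3 each). The highest means of MpBHLH1, as of MpBHLH3, were in wounded Tak-1, wounded Mpdes6fad5 and mock Tak-1, in that order. MpBHLH24 (Mp8g04130) had 38.5 ± 3.08 CPM in wounded and 12.8 ± 2.35 CPM in mock Mpdes6fad5 (SD, n = 3 each), a rise of 1.53 ± 0.14 (SE; limma, adjusted p = 2.26e-08). MpBHLH24 had 55.0 ± 7.15 CPM in wounded and 14.1 ± 1.37 CPM in mock Mpcoi1 (SD, n = 3 each). In Tak-1 it had 49.4 ± 5.40 CPM in wounded and 11.7 ± 2.00 CPM in mock libraries (SD, n = 3 each). Unlike in the 4 genes and MpBHLH1, its mean in wounded Mpcoi1 was not below that in wounded Tak-1. MpBHLH15 (Mp6g18480) fell to 101 ± 11.6 CPM in wounded Mpdes6fad5, against 222 ± 12.1 CPM in mock Mpdes6fad5 (SD, n = 3 each; −1.13 ± 0.08, limma adjusted p = 1.77e-09). No other bHLH gene was called with a size of at least 1 in a comparison of mock plants.

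Genes of the jasmonate pathway were read in the order of their roles. Of 4 signalling genes, 3 rose in wounded against mock Mpdes6fad5 and none fell, with a median of 0.34 beside −0.03 over all tested genes, of which 28.1% were called higher and 28.9% lower. MpCOI1, the receptor, had 78.4 ± 6.01 CPM in wounded and 79.7 ± 0.896 CPM in mock Mpdes6fad5 (SD, n = 3 each) and did not pass (−0.02 ± 0.08, limma adjusted p = 0.821). MpJAZ, the repressor, had 117, 121 and 121 CPM in wounded and 17.5, 19.95 and 18.8 CPM in mock Mpdes6fad5, a rise of 2.61 ± 0.09 (SE; limma, adjusted p = 4.46e-14). In Mpcoi1 MpJAZ had 25.5, 27.3 and 24.6 CPM in wounded and 16.2, 17.1 and 18.7 CPM in mock libraries, a rise of 0.55 ± 0.09 (SE; limma, adjusted p = 5.24e-05). MpNINJA, named for the adaptor that joins JAZ to a co-repressor, and MpTPL, named for that co-repressor, were the other 2 that rose in Mpdes6fad5. In Mpcoi1 3 of the 4 signalling genes also rose after wounding and none fell, with a median of 0.41. This stands beside 24.5% of all tested genes called higher and 28.5% lower. In Tak-1 3 rose and 1 fell, with a median of 0.49, beside 26.0% called higher and 30.6% lower.

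Of 17 tested genes of oxylipin synthesis (lipoxygenases and CYP74 enzymes), 7 rose, 6 fell and 4 did not pass in Mpdes6fad5, with a median of 0.03, beside the same 28.1% and 28.9%. The largest falls were those of MpLOX12, at 5.38 ± 0.861 CPM in wounded and 33.5 ± 9.20 CPM in mock Mpdes6fad5 (−2.41 ± 0.18, limma adjusted p = 1.48e-09), and of MpLOX13, at 2.22 ± 0.298 and 13.1 ± 2.75 CPM (−2.11 ± 0.24, adjusted p = 5.58e-07; SD, n = 3 each). Lipoxygenases add oxygen to polyunsaturated fatty acids, the first step towards oxylipins. All 4 tested genes named for hormone conjugation (GH3) or oxidation (CYP94) rose in Mpdes6fad5, with a median of 2.42, beside 28.1% of all tested genes called higher. MpCYP94-like had 19.96 ± 1.40 CPM in wounded and 1.73 ± 0.145 CPM in mock Mpdes6fad5 (SD, n = 3 each; 2.94 ± 0.14, adjusted p = 2.76e-12). MpGH3A had 239 ± 8.27 CPM in wounded and 34.2 ± 2.55 CPM in mock Mpdes6fad5 (SD, n = 3 each; 2.77 ± 0.13, adjusted p = 3.36e-12). CYP94 enzymes oxidise jasmonate conjugates in flowering plants, and GH3 enzymes join hormones to amino acids there.

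The genes whose pattern was most like that of each of the 4 were found by Pearson's r of log2(CPM + 1) over the 18 libraries, as a description, since all points share the wounding contrast. For MpBHLH2 they were MpMAPKKK10 (Mp4g08320, r = 0.993), named as a kinase of a MAP kinase cascade, then Mp7g16100 (0.992) and Mp2g24880 (0.989). MpMAPKKK10 had mean levels of 33.1 CPM in wounded and 12.3 CPM in mock Mpcoi1, 132 CPM in wounded and 9.47 CPM in mock Mpdes6fad5, and 115 CPM in wounded and 13.5 CPM in mock Tak-1. Its mean level, like that of MpBHLH2, was highest in wounded Mpdes6fad5 and lowest in mock Mpdes6fad5. Unlike in MpBHLH2, its wounded Mpdes6fad5 libraries (119.6, 131.2 and 146.2 CPM) overlapped those of wounded Tak-1 (106.3, 120.2 and 117.7 CPM).

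For MpBHLH3 the most alike genes were MpBHLH1 (r = 0.984), Mp5g21760 (0.981) and Mp4g02090 (0.979). Mp5g21760 averaged 0.602 CPM in wounded and 0.666 CPM in mock Mpcoi1, 61.9 CPM in wounded and 0.166 CPM in mock Mpdes6fad5, and 523 CPM in wounded and 4.38 CPM in mock Tak-1. As with MpBHLH3, the mean in wounded Mpdes6fad5 lay below that in wounded Tak-1, and that in mock Tak-1 lay above both mock mutants.

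For MpBHLH4 the most alike genes were Mp3g17580 (r = 0.992), Mp4g03340 (0.991) and MpCYP94-like (0.989). Mp3g17580 averaged 6.62 CPM in wounded and 7.06 CPM in mock Mpcoi1, 124 CPM in wounded and 7.24 CPM in mock Mpdes6fad5, and 186 CPM in wounded and 14.9 CPM in mock Tak-1. None of these 3 had a higher mean in wounded than in mock Mpcoi1. For MpBHLH51 they were MpGID2 (Mp1g06600, r = 0.994), Mp7g12590 (0.993) and Mp5g07500 (0.989). Mp7g12590 averaged 5.50 CPM in wounded and 0.0126 CPM in mock Mpcoi1, 36.6 CPM in wounded and 0.0471 CPM in mock Mpdes6fad5, and 30.1 CPM in wounded and 0.0880 CPM in mock Tak-1, with mock levels under the detection limit. All 3 had a higher mean in wounded than in mock Mpcoi1, as MpBHLH51 had.

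Among the 4 themselves, r over the 18 libraries was 0.969 between MpBHLH2 and MpBHLH51 and 0.954 between MpBHLH3 and MpBHLH4. It was 0.914 between MpBHLH2 and MpBHLH4, 0.863 between MpBHLH2 and MpBHLH3, 0.838 between MpBHLH4 and MpBHLH51 and 0.788 between MpBHLH3 and MpBHLH51. These values share the wounding contrast in all 18 libraries.

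Mock Tak-1 replicate 2 was also the highest of the mock Tak-1 libraries in several of these genes. MpJAZ had 31.0 CPM there and 23.9 and 27.9 CPM in replicates 1 and 3. MpGH3A had 74.8 CPM there and 44.7 and 57.4 CPM in the others, and MpCYP94-like had 3.17 CPM there and 1.97 and 2.08 CPM in the others. Mp3g17580 had 19.3 CPM there and 12.2 and 13.3 CPM in the others. The excess of this library was smaller in each of these genes than in MpBHLH4, where it had 11.9 CPM beside 0.724 and 1.02 CPM.

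The genes listed beside MpBHLH2, MpBHLH3 and MpBHLH4 were read in the same comparison. Of 12 listed around them, 8 were tested, and in wounded against mock Mpdes6fad5 4 rose and 2 fell, beside 28.1% of all tested genes called higher and 28.9% called lower. Both genes listed between the 3 rose at low levels. Mp2g00900, between MpBHLH2 and MpBHLH3, had 42, 26 and 31 reads in wounded and 2, 2 and 1 reads in mock Mpdes6fad5 (log2(CPM + 1) difference 1.25 ± 0.14, limma adjusted p = 5.55e-07). It had 35, 44 and 31 reads in wounded and 0, 8 and 2 reads in mock Tak-1, and at most 3 reads in any Mpcoi1 library. Mp2g00920, between MpBHLH3 and MpBHLH4, had 24, 22 and 13 reads in wounded and 0 reads in each mock Mpdes6fad5 library (0.93 ± 0.13 with the constant of 1 CPM, limma adjusted p = 5.10e-06). It had 21, 28 and 39 reads in wounded and 0, 0 and 2 reads in mock Tak-1, and 0 reads in all Mpcoi1 libraries. No source used here gives the strand of counting, so reads from overlapping or antisense genes could not be told apart, and reads shared among similar copies likewise.

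**Figure D3:**
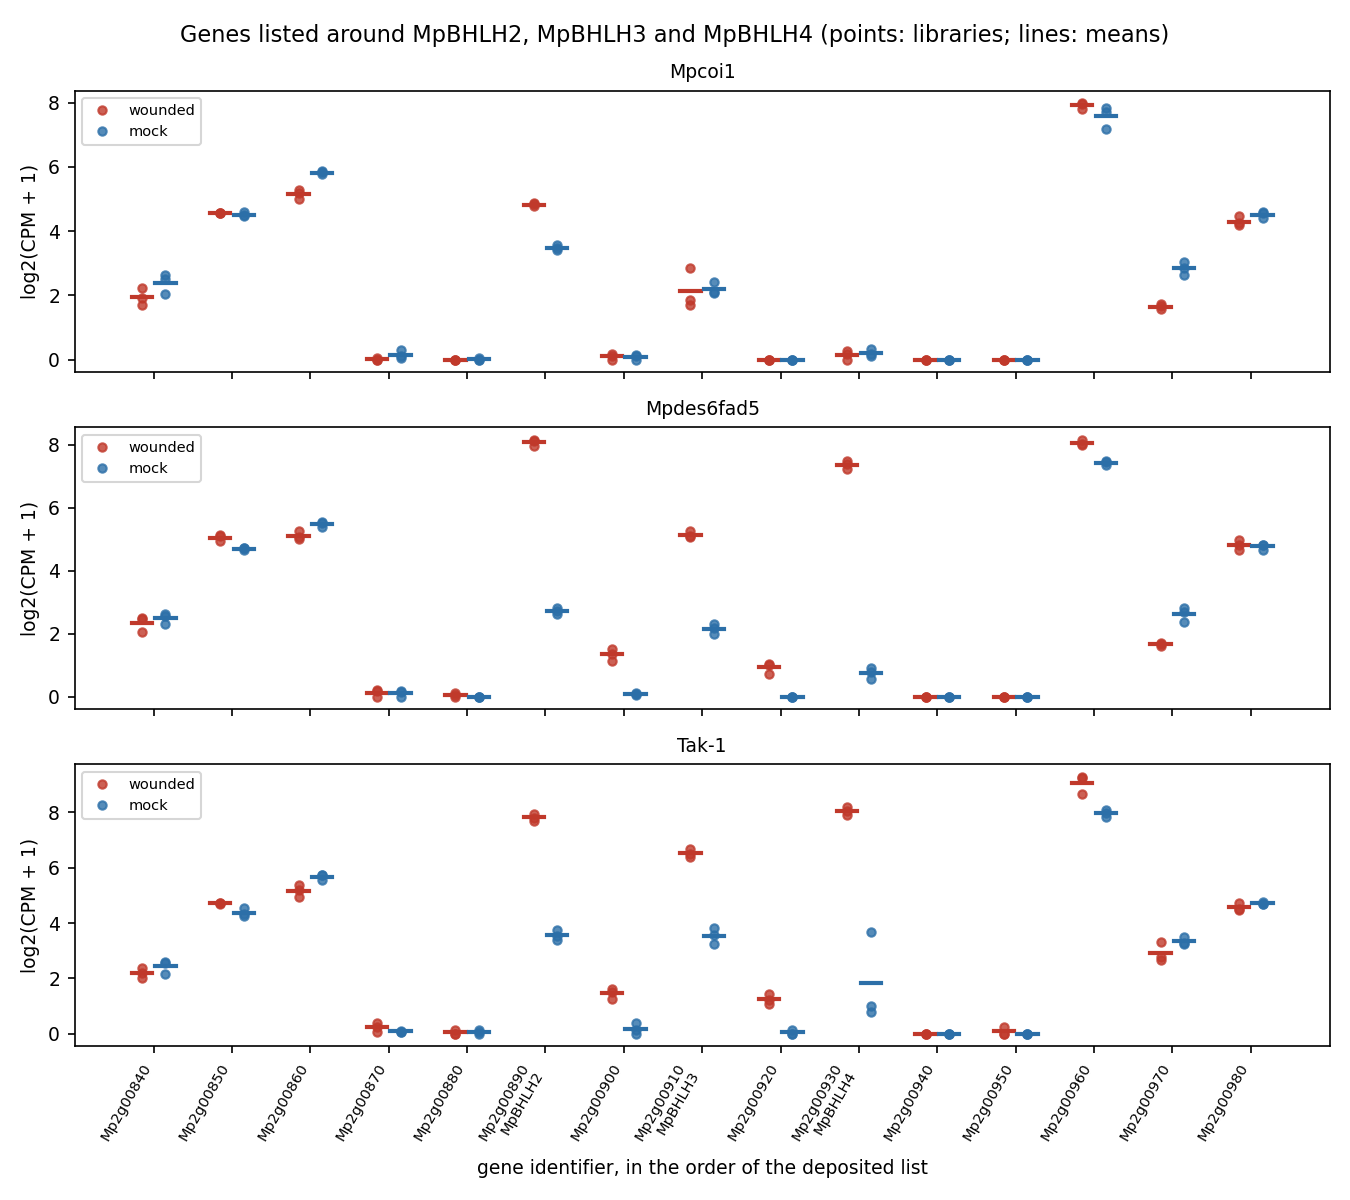
Level on a log2(CPM + 1) axis of the genes listed from Mp2g00840 to Mp2g00980 in each genotype, with a point per library and a line at the mean, wounded in red and mock in blue. In Mpdes6fad5 and Tak-1 the wounded points rise at MpBHLH2, MpBHLH3, MpBHLH4 and, at low level, at Mp2g00900 and Mp2g00920 between them, and the tested genes outside this stretch differ by less than 1 on this axis in Mpdes6fad5.

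Outside that stretch differences were also found. Mp2g00960 had 279, 250.4 and 257 CPM in wounded and 178, 172 and 161 CPM in mock Mpdes6fad5 (0.62 ± 0.15, limma adjusted p = 0.00195). In Tak-1 it had 616, 607 and 402 CPM in wounded and 272, 248 and 226 CPM in mock libraries (1.10 ± 0.15, adjusted p = 6.78e-06). Mp2g00970 had 2.21, 2.04 and 2.24 CPM in wounded and 6.00, 5.45 and 4.19 CPM in mock Mpdes6fad5, a fall (−0.96 ± 0.16, adjusted p = 4.14e-05). Around MpBHLH51, 9 of 10 listed genes were tested, and 2 rose and 3 fell in Mpdes6fad5, beside the same shares. Of these Mp8g06210 had 28, 37 and 24 reads in wounded and 3, 3 and 1 reads in mock Mpdes6fad5 (1.13 ± 0.14, adjusted p = 1.43e-06), and at most 3 reads in any Mpcoi1 library.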

How the data were processed

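RNA was measured in 18 libraries of 6 groups. The deposited values are log2 CPM with a small prior, made by the authors; per the submitters' processing notes Trim Galore, HISAT2, HTSeq and edgeR were used, with versions, strand and genome build not given in the sources used here. All libraries shared a lowest value of −3.50, equal to 0.0886 CPM, which stands for no read and was subtracted to give CPM. Reads were recovered as whole multiples of 1 step per library; 100.0% of values up to 1000 reads were whole within 0.01. In all, 2688 listed genes had no read. The table had 0 columns without a sample. No pair of replicates agreed within sampling noise: the chi-square per gene between replicates was 3.50 to 32.7.

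The fits used limma 3.58.1 and R 4.3.3 on log2(CPM + 1) (cell-means model of all groups, eBayes with a mean trend, two-sided, Benjamini-Hochberg over 13220 genes, threshold 0.05), and with Python 3.11.15, pandas 2.3.3, numpy 2.4.6, scipy 1.17.1 and matplotlib 3.10.9. The test was checked on made-up data with known changes. Count models were not run, since the deposited unit is log2; voom on the recovered reads was an alternative. Replicates are separate pools of plants, per the labels.

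The mock Mpcoi1 against mock Tak-1 comparison, planned as a test, is given for the 4 genes as a description, since its libraries took part in their choice. The Mpdes6fad5 wound response, also planned as a test, is given for the 4 genes as a description, since they were picked as wound-induced. The 4 genes, the lists and the tests were chosen with earlier results of these data known. Symbols came from a RefSeq table of assembly MpTak2_v7.1, in which 17641 identifiers matched and 3091 had a symbol; it was used for names alone. GH3 symbols followed by a number after a point were left out, as they follow the naming of glycoside hydrolases. Named genes were the 4, the 3 most alike of each, listed neighbours, other bHLH genes called with a size of at least 1, MpCOI1, MpJAZ and the 4 largest called changes of jasmonate genes; other genes are named where counts are small.

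Each result was also computed with 0.1 or 5 CPM added in place of 1, with the filter dropped or set to an average of 5 CPM, after rescaling (median of ratios, library totals or quantiles), on the deposited scale, with voom, within the groups of a comparison alone, with a replicate block, and without each library.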

Additional observations from a re-analysis of the deposited data

Results flagged for a closer look

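Beside the 4 genes, whose differences of response chose them, named genes were flagged where a limma test of the difference between 2 genotypes' wound responses passed the threshold (log2(CPM + 1), Benjamini-Hochberg over all tested genes). The bHLH and jasmonate genes flagged here, apart from MpJAZ, were named for the size of their Mpdes6fad5 wound response. Differences that hold this response thus share values with the choice of these genes, and their adjusted p-values do not allow for this. Groups of 3 libraries were not tested for single distant libraries.

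The Mpcoi1 minus Tak-1 difference of responses was −3.91 ± 0.19 for MpGH3A (SE; adjusted p = 5.26e-11), −3.44 ± 0.19 for MpCYP94-like (5.61e-10), −2.07 ± 0.13 for MpJAZ (1.79e-09) and −1.40 ± 0.10 for MpBHLH1 (2.30e-08). Among the listed neighbours it was −1.27 ± 0.20 for Mp2g00900 (0.000313), −1.20 ± 0.18 for Mp2g00920 (0.000167) and −0.92 ± 0.19 for Mp8g06210 (0.00482), all 3 with few or no reads in Mpcoi1, so that these sizes depend on the constant of 1 CPM. It was −0.75 ± 0.21 for Mp2g00960 (0.0376). For Mp2g00970 (−0.77 ± 0.22, 0.0383) and MpLOX12 (−0.85 ± 0.25, 0.0442) the response was a fall in both genotypes, larger in Mpcoi1. The fit behind these Mpcoi1 minus Tak-1 differences did not pair replicate numbers, although wounded libraries of the same number correlated between these genotypes.

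The Mpdes6fad5 response was larger than the Mpcoi1 response by 3.64 ± 0.19 for MpGH3A (SE; adjusted p = 2.13e-10), 3.07 ± 0.19 for MpCYP94-like (3.61e-09), 2.06 ± 0.13 for MpJAZ (2.59e-09) and 1.40 ± 0.10 for MpBHLH1 (2.89e-08). It was larger by 1.24 ± 0.20 for Mp2g00900 (0.000245), 1.12 ± 0.19 for Mp8g06210 (0.000504) and 0.93 ± 0.18 for Mp2g00920 (0.00117). For MpBHLH15 the difference was −0.50 ± 0.12 (0.00567).

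Between the Mpdes6fad5 and Tak-1 responses 1 named gene was flagged, MpLOX12, with a difference of −1.15 ± 0.25 (SE; adjusted p = 0.00489).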

How the results depend on the processing

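Of 464 recomputed values of the 16 results planned as tests of the 4 genes, 439 kept direction and side of the threshold, and 18 that changed side all concern MpBHLH4 in mock plants. In 7, all of mock differences that did not pass, the sign turned. On library totals the Mpdes6fad5 minus Mpcoi1 difference of MpBHLH3 was 0.035. Without single libraries it ran from −0.12 to 0.058, and that of MpBHLH51 from −0.19 to 0.025. The Mpdes6fad5 minus Tak-1 difference of MpBHLH51 ran from −0.33 to 0.0098, and the Mpcoi1 minus Tak-1 differences of MpBHLH2 and MpBHLH51 from −0.16 to 0.017 and −0.24 to 0.096. For MpBHLH4 the call in the planned Mpcoi1 minus Tak-1 test, otherwise given as a description, was lost where 5 CPM was added in place of 1 (−0.69), without a filter (−1.62), with voom (−3.83) and with only the groups compared (−1.62). Leaving out single libraries it ran from −2.14 to −0.69 and was lost without each mock Mpcoi1 library, wounded Mpcoi1 replicate 1 or any Mpdes6fad5 library. Its Mpdes6fad5 minus Tak-1 difference ran from −1.61 to −0.16 and was called without mock Tak-1 replicate 1 (−1.61, adjusted p = 0.0108) or 3 (−1.50, 0.0257). Its Mpdes6fad5 minus Mpcoi1 difference ran from 0.45 to 0.63, and was called with only the groups compared (0.53, 0.00730) and without mock Tak-1 replicate 2 (0.53, 0.00254). Genes called in mock Mpcoi1 against mock Tak-1 numbered 881 and ran from 363 to 1407 without single libraries (without mock Tak-1 replicates 1, 2 and 3, 419, 1401 and 413; wounded Tak-1 replicate 3, 1407; mock Mpcoi1 replicates 1, 2 and 3, 546, 363 and 409). The other counts stayed within 1.5 times. Of 580 described values, 32 moved by more than a replicate SD; the Tak-1 response of MpBHLH51 ran from 5.02 with 5 CPM to 9.05 with voom. The cause was not tested.

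The share of calls that were higher was 49.3% for the Mpdes6fad5 wound response, 37.7% on library totals and 35.0% after quantile normalization. For mock Mpdes6fad5 against mock Tak-1 it was 46.2%, or 73.8% on library totals, and against mock Mpcoi1 48.2%, or 71.7%. Replicate numbers were not taken to pair the samples, as 10 of 45 pairs correlated over 0.1 (r −0.33 to 0.56). All 3 did so between wounded Tak-1 and wounded Mpcoi1 (0.163, 0.199 and 0.555) and in no other pair of groups. No comparison tested for the 4 genes sets these groups against each other. The flagged Mpcoi1 minus Tak-1 differences of response hold both groups, and their adjusted p-values do not allow for this. With the replicate block 7532 genes were called in the Mpdes6fad5 wound response, 911, 5030 and 4311 in the mock comparisons and 23 other bHLH genes, and no call of the 4 genes changed (MpBHLH4 in mock Mpcoi1 minus mock Tak-1, −1.62).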
